A study of Mus musculus with 6 samples.

Results

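The genes that bring fatty acids into atrial cells, burn them in mitochondria and regulate that burning were followed across the 6 atrial RNA-seq libraries of the series. The set was chosen by name, as 38 genes of fatty acid uptake, transport and beta-oxidation with their regulators, out of 54838 genes counted. All 38 were found by symbol, and 36 of them had enough reads to be tested, among 14708 tested genes.

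Heart muscle takes most of its energy from long-chain fatty acids. Lipoprotein lipase on the vessel wall releases them from triglyceride, membrane transporters and binding proteins carry them into the cell, acyl-CoA synthetases activate them, and the carnitine shuttle moves them into mitochondria. There, the beta-oxidation spiral cuts off acetyl-CoA and passes electrons to the respiratory chain through the electron transfer flavoprotein. Nuclear receptors such as PPAR-alpha, with the coactivators PGC-1-alpha and PGC-1-beta, set the level of most of these genes, and pyruvate dehydrogenase kinase 4 holds back glucose oxidation when fat is burned.

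The series compared old mice lacking protein kinase C epsilon (PKC-epsilon, gene Prkce) with old wild-type (WT) C57BL/6J mice, with 1 atrial library per mouse and 3 mice per genotype. The knockout (KO) mice came from a JAX stock, the mean age was 20.9 ± 0.43 months (the kind of error is not named), both sexes were used and no treatment is listed. The labels do not say which part of Prkce is deleted, nor how the WT mice were bred relative to the knockouts, so line and genotype cannot be told apart.

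The genotype of 4 of the 6 libraries is contradictory: the library name gives one genotype and the genotype field gives the other. Libraries are called here by the name they carry and the replicate number of their title, as WT1, WT2, WT3, KO1, KO2 and KO3, and these are labels only. By the genotype field, WT1, KO2 and KO3 are WT, and KO1, WT2 and WT3 are KO. The library names of WT1 and KO1 begin with Old (the Old series), and the other names begin with a number (the numbered series). What the series stand for is not known here. Prkce itself was at 36.2, 11.7 and 30.2 CPM (gene counts scaled to the size of the library) in WT1, WT2 and WT3 and at 9.20, 5.15 and 28.6 CPM in KO1, KO2 and KO3. Its level therefore goes against the library name for WT2 and KO3 and against the genotype field for WT3 and KO2. Every comparison below is given under both readings. The readings use the same 6 libraries and are opposite to each other for WT2, WT3, KO2 and KO3, so they are not independent.

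Total counts per library ran from 11574206 to 24138824. Atrial cardiomyocyte markers, all 10 of them detected, summed to between 42500 and 53941 CPM, so the defining markers of the labelled tissue were present in every library. Sums of other markers differed more between libraries. White adipocyte markers (12 of 12 detected) ran from 25.4 CPM in WT1 to 149.7 CPM in WT2, brown adipocyte markers (8 of 8) from 62.2 CPM in WT3 to 156 CPM in KO2, and ventricular markers (6 of 6) from 151 CPM in KO3 to 661 CPM in WT2. Y-linked genes were near 1 CPM in WT1 and WT2 and at 80.0 to 138 CPM in the other 4. In bulk tissue, fewer cells of a type and less RNA per cell cannot be told apart.

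No member passed the threshold of adjusted p 0.05 under either reading (edgeR's quasi-likelihood test, Benjamini-Hochberg adjustment over all genes tested). By library name, 0 of 36 members were called, where 0% of all tested genes were, and the smallest adjusted p of a member was 1.00. By genotype field, 0 of 36 were called, where 0.0136% of all tested genes were, and the smallest adjusted p was 0.904. At an unadjusted p under 0.05 there was 1 member by library name, Ppargc1a, against 1.49% of all genes, and 0 members by genotype field, against 5.69%. DESeq2 and limma-voom also called 0 members under both readings.

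The direction of the set was close to that of all genes. By library name, 13 of 36 members were higher in KO, against 45.5% of all tested genes, with a median log2 fold change of -0.05 where that of all genes was -0.02. By genotype field, 17 of 36 were higher, against 48.1% of all genes, with a median of -0.02 where that of all genes was -0.01. No member had KO and WT libraries that did not overlap by library name, against 5.95% of all genes (3.33% with KO higher and 2.62% with KO lower). By genotype field 3 members did not overlap, against 12% of all genes. Acot1 and Ucp2 were higher in all 3 libraries of the KO field, as 7.48% of all genes were, and Decr1 was lower in all 3, as 4.49% were.

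Differences between mice were of ordinary size. The highest library was at least 2 times the lowest for 8 of 36 members, against 32.4% of all tested genes. The median ratio of highest to lowest was 1.52 for the members and 1.65 for all genes, which were not matched to the members for level. The 8 variable members were Angptl4, Acadvl, Eci2, Acot1, Ppara, Ppargc1a, Ppargc1b and Pdk4. The 8 narrowest, with ratios from 1.15 for Cpt2 to 1.23 for Slc25a20, were Fabp3, Lpl, Cpt2, Slc25a20, Acadl, Acaa2, Echs1 and Decr1, none of them a regulator.

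**Figure D1:**
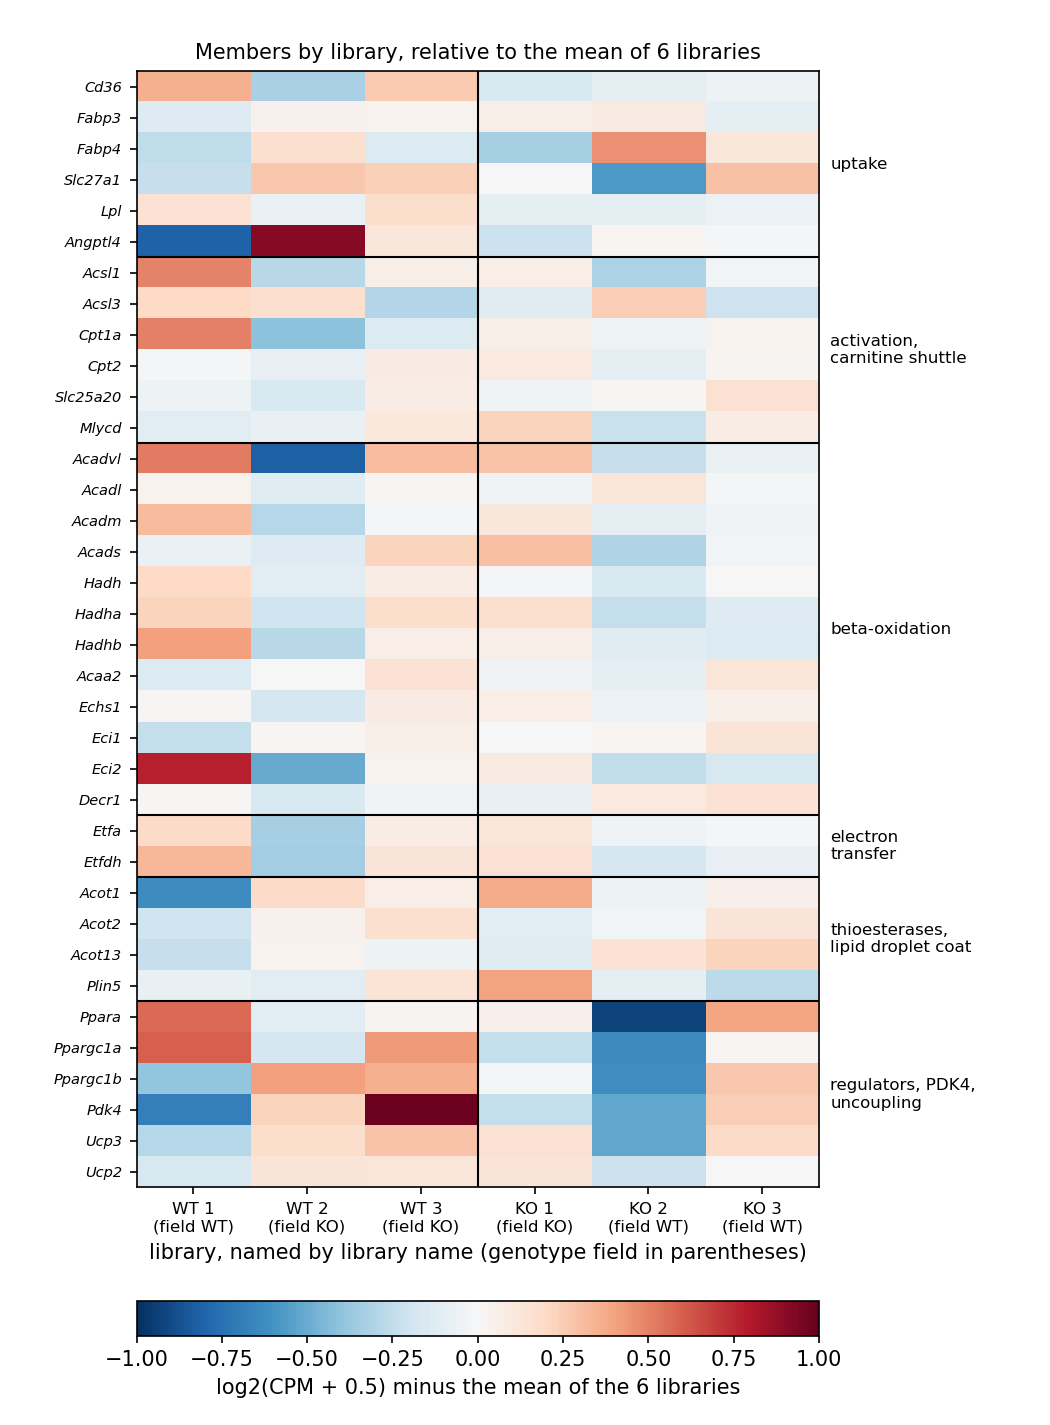
Level of the 36 tested members in each library, as log2(CPM + 0.5) minus the mean over the 6 libraries, with rows grouped by role and columns by library name. Strong colours appear in the rows of Angptl4, Acadvl, Eci2, Acot1, Ppara, Ppargc1a, Ppargc1b and Pdk4, the 8 members with a ratio of at least 2, and KO2 is blue in all 6 rows of the regulators.

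Ordered by level per length, the set spanned a wide range. Levels were divided by the kilobases of transcript that could be counted, as the basis for comparing genes. Fabp3, the heart-type fatty acid binding protein that carries fatty acids through the cytosol, was highest at 2136 ± 132 CPM per kilobase (SD, n = 6). It was followed by Lpl at 891 ± 78.1 CPM per kilobase and Fabp4 at 673 ± 143 CPM per kilobase. At the other end stood Ppara at 2.35 ± 0.785, Ppargc1b at 2.29 ± 0.662, Acsl3 at 1.88 ± 0.321 and Acot1 at 1.33 ± 0.329 CPM per kilobase. The ranges of these 4 overlapped, so their order is not resolved. Divided by the countable length of all annotated exons instead, Fabp3 and Acot1 kept their places, while Lpl was at 350 CPM per kilobase, below Acadl at 452, Acaa2 at 381 and Acot13 at 375, and Fabp4 was at 134. The ranking below Fabp3 thus depends on the length used. Counts of Fabp3 may include reads of a processed copy, since 26% of the 75-base windows of its transcript also occur in other genes, most of them in the pseudogene Fabp3-ps1.

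**Figure D2:**
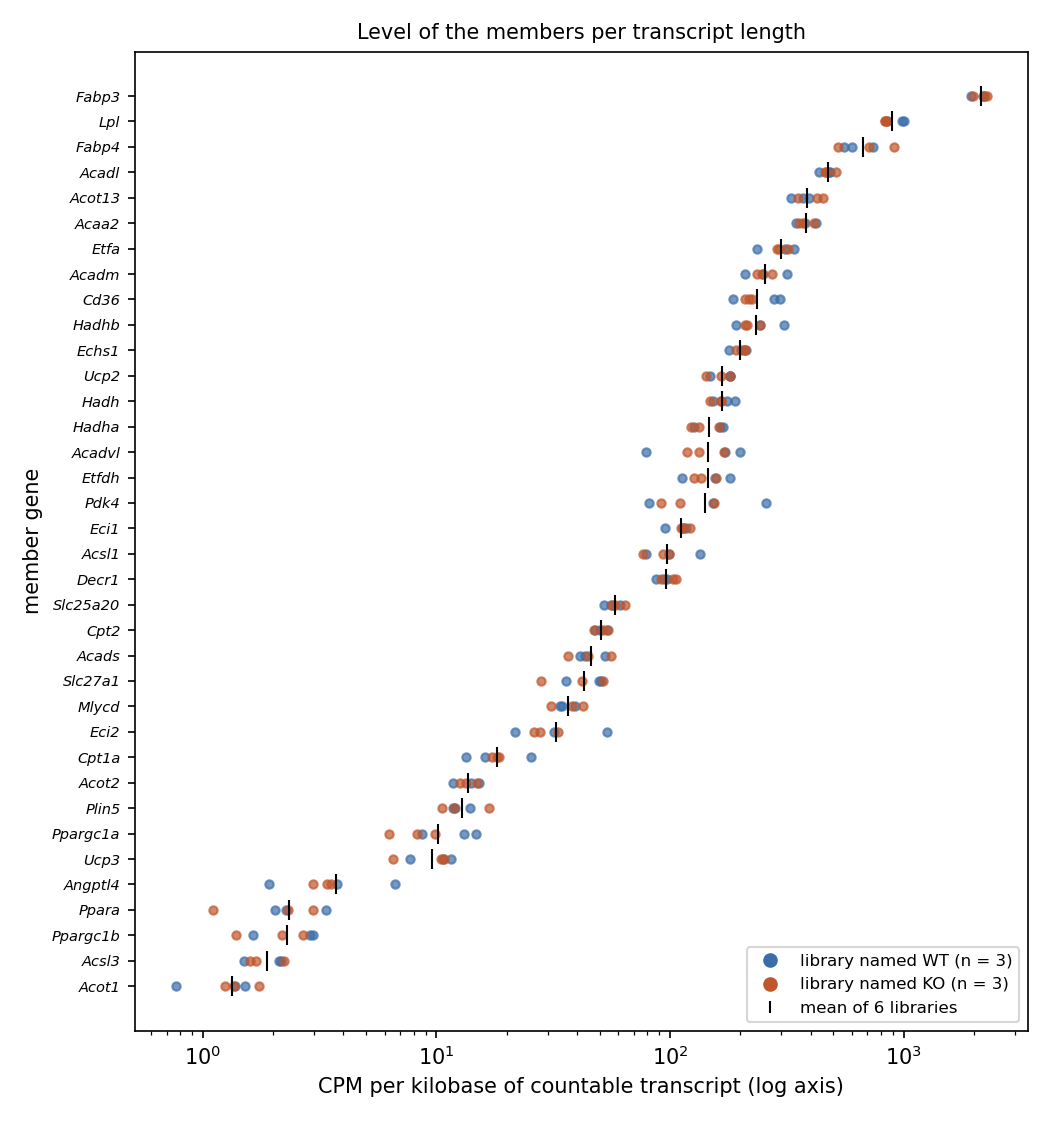
CPM per kilobase of countable transcript for the 36 tested members on a log axis, with 1 point per library coloured by library name and a tick at the mean of 6. Fabp3 stands at the top near 2136, the 12 beta-oxidation enzymes lie between the ticks of Eci2 at 32.5 and Acadl at 473, and Acot1 is lowest at 1.33; blue and orange points are intermixed.

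Among the uptake genes, the abundant carriers differed little between libraries. Fabp3 was at 1292, 1458 and 1446 CPM in WT1, WT2 and WT3 and at 1467, 1505 and 1316 CPM in KO1, KO2 and KO3. The lowest and the highest Fabp3 values differed by 1.16 times, and the groups overlapped under both readings. Lpl, the lipase itself, was at 4035, 3490 and 4119 CPM in WT1 to WT3 and at 3424, 3418 and 3509 CPM in KO1 to KO3. WT1 and WT3 stood above the other 4 libraries, and WT2 lay within the range of the KO names. The log2 fold change of Lpl was -0.17 (SE 0.15, edgeR adjusted p = 1.00) by library name and 0.01 (SE 0.15) by genotype field, in edgeR's test.

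Cd36, the fatty acid translocase of the plasma membrane, was at 1009, 632 and 948 CPM in WT1 to WT3 and at 710, 743 and 762 CPM in KO1 to KO3. WT1 and WT3 were again the 2 highest, but WT2 was the lowest of all, so the groups overlapped. Its log2 fold change was -0.23 (SE 0.19) by library name and -0.13 (SE 0.19) by genotype field. Slc27a1, the fatty acid transport protein FATP1, ranged from 78.5 CPM in KO2 to 144 CPM in KO3.

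Fabp4, the binding protein of adipocytes and of capillary endothelium, was at 497, 663 and 538 CPM in WT1 to WT3 and at 470, 812 and 640 CPM in KO1 to KO3. KO2 was highest and KO1 lowest, and the groups overlapped under both readings. Its log2 fold change was 0.18 (SE 0.21) by library name and -0.22 (SE 0.20) by genotype field. White adipocyte markers summed to 25.4, 149.7 and 73.7 CPM in WT1 to WT3 and to 32.5, 123 and 92.6 CPM in KO1 to KO3. The same 2 libraries, WT1 and KO1, were thus lowest for this sum and for Fabp4. They are also the libraries of the Old series, whose part in these levels was not tested. Endothelial markers (10 of 10 detected) summed to between 1254 and 1553 CPM. The part of either cell type in the level of Fabp4 was not tested.

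Angptl4, a secreted inhibitor of lipoprotein lipase and a classical PPAR target, had the widest range of all members. It was at 6.36, 22.1 and 12.4 CPM in WT1 to WT3 and at 9.82, 11.7 and 11.3 CPM in KO1 to KO3. Its extremes, WT1 and WT2, both carry the name WT, and the 95% Poisson intervals of their counts, 5.20 to 7.68 and 19.4 to 24.9 CPM, did not touch. By library name the means were 13.6 ± 7.91 and 10.9 ± 0.980 CPM (SD, n = 3), for WT and KO, a log2 fold change of -0.31 (SE 0.37). By genotype field they were 9.78 ± 2.97 and 14.8 ± 6.44 CPM, a log2 fold change of 0.59 (SE 0.33, edgeR adjusted p = 0.904). The sum of white adipocyte markers was likewise lowest in WT1 and highest in WT2. Cfd alone gave 77.3 of the 149.7 CPM in WT2. Cfd, Adipoq and Retn were highest in WT2, and Lgals12 and Slc7a10 in KO3. Plin1, Cidec, Lep, Adrb3, Pck1, Trarg1 and Adig were highest in KO2, where Angptl4 was at 11.7 CPM. The part of fat cells in the level of Angptl4 was not tested.

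Activation and the carnitine shuttle showed no difference past the threshold. Acsl1, the major acyl-CoA synthetase of heart, had the highest level per transcript length of its role (96.9 ± 20.9 CPM per kilobase), but lay below Cpt2 (50.3 CPM per kilobase) by the length of all exons. It was at 524, 306 and 385 CPM in WT1 to WT3 and at 387, 298 and 364 CPM in KO1 to KO3. WT1 stood apart above the other 5, which ran from 298 to 387 CPM under both names. Its relative Acsl3 was between 5.61 and 8.34 CPM.

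Cpt1a, the liver-type carnitine palmitoyltransferase that forms acylcarnitine at the outer mitochondrial membrane, was at 109.5, 57.9 and 69.9 CPM in WT1 to WT3 and at 80.2, 74.7 and 78.8 CPM in KO1 to KO3. The highest and the lowest library both carry the name WT, and the 3 libraries named KO lay between them. The log2 fold change was -0.02 (SE 0.21) by library name. By genotype field it was -0.34 (SE 0.18, edgeR adjusted p = 0.904), with means of 87.7 ± 19.0 CPM in the WT field and 69.4 ± 11.2 CPM in the KO field (SD, n = 3), which overlapped through KO1.

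The muscle-type enzyme Cpt1b, known as the major form in heart, had 0 counts in all 6 libraries. Its gene body (GRCm38, chromosome 15, 89416405 to 89425863, minus strand) is wholly covered by the annotated gene Gm44502. Genes covered in this way have counts at or near 0 throughout the table, and 92.1% of the 75-base windows of the Cpt1b transcript also occur in Gm44502. Its level is therefore unknown here and no limit is given. The later steps of the shuttle were even across mice: Cpt2, the inner-membrane palmitoyltransferase, ran from 112 to 128 CPM, and Slc25a20, the carnitine-acylcarnitine translocase, from 92.9 to 115 CPM. Mlycd, malonyl-CoA decarboxylase, which removes the inhibitor of the first step, ran from 66.1 to 90.2 CPM.

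Of the 12 beta-oxidation enzymes, 4 were higher in KO by library name and 4 by genotype field, and none passed the test. Acadl, the long-chain acyl-CoA dehydrogenase, was the highest of the role at 473 ± 27.3 CPM per kilobase. It was at 928, 830 and 918 CPM in WT1 to WT3 and at 881, 986 and 891 CPM in KO1 to KO3, and the groups overlapped under both readings. Acaa2, the thiolase of the last step, ran from 524 to 636 CPM, and Echs1, the short-chain enoyl-CoA hydratase, from 247 to 294 CPM.

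Acads, the short-chain acyl-CoA dehydrogenase, was at 80.9, 77.3 and 98.8 CPM in WT1 to WT3 and at 104, 68.5 and 83.2 CPM in KO1 to KO3. KO1 and WT3 were highest and KO2 was lowest. Its log2 fold change was -0.01 (SE 0.18) by library name and 0.27 (SE 0.15, edgeR adjusted p = 0.904) by genotype field, where WT2 lay within the range of the WT field. Decr1, the dienoyl-CoA reductase needed for polyunsaturated fatty acids, was at 287, 257 and 278 CPM in WT1 to WT3 and at 270, 305 and 314 CPM in KO1 to KO3. Every library of the KO field (257 to 278 CPM) lay below every library of the WT field (287 to 314 CPM), with a log2 fold change of -0.17 (SE 0.13, edgeR adjusted p = 0.909).

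The alpha and beta subunits of the trifunctional protein, Hadha and Hadhb, carry out the last steps for long chains. Both were highest in WT1, but their lowest libraries differed. Their log2 fold changes by genotype field were 0.09 (SE 0.17) for Hadha and -0.12 (SE 0.18) for Hadhb. Hadha was between 485 CPM in KO2 and 668 CPM in WT1, and Hadhb between 391 CPM in WT2 and 632 CPM in WT1. For Hadhb, 57.2% of the 75-base windows also occur in other genes, chiefly Gm13910, so its count is uncertain. Acadm, the medium-chain dehydrogenase, ran from 427 to 646 CPM, Hadh, the short-chain hydroxyacyl-CoA dehydrogenase, from 266 to 341 CPM, and Eci1, an enoyl-CoA isomerase, from 108 to 139 CPM.

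Acadvl and Eci2 were the enzymes that varied most between libraries. Acadvl, the very-long-chain acyl-CoA dehydrogenase, was at 233, 91.8 and 201 CPM in WT1 to WT3 and at 198, 138 and 154 CPM in KO1 to KO3. Eci2, an isomerase found in mitochondria and peroxisomes, was at 38.6, 15.6 and 22.8 CPM in WT1 to WT3 and at 23.7, 18.6 and 19.9 CPM in KO1 to KO3. Both were highest in WT1 and lowest in WT2, which carry the same name. The groups overlapped under both readings, by genotype field through KO1 and WT3, which lay above KO2 and KO3. Their log2 fold changes were -0.10 (SE 0.31) and -0.31 (SE 0.29) by library name and -0.10 (SE 0.31) and -0.31 (SE 0.29) by genotype field.

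These 2 genes share a feature the choice of members did not use. Other annotated genes overlap their 3′ parts, which leaves 53.7% of the Acadvl transcript and 40.9% of the Eci2 transcript free, both towards the 5′ end. The balance of 5′ against 3′ coverage was measured as the log2 median of 747 genes countable only in their 5′ part minus that of 195 genes countable only in their 3′ part. Members were not left out, and Acadvl and Eci2 are among the 747, so the index is not independent of them. This index was 0.42 in WT1, -0.44 in WT2 and 0.09 in WT3, and 0.17 in KO1, -0.13 in KO2 and -0.08 in KO3. WT1 and KO1, the libraries of the Old series, had the highest values. Acadvl and Eci2 were highest and lowest in the same libraries as the index. So were 6 members that are countable over the whole transcript, with ratios of highest to lowest library of 1.89 for Cpt1a, 1.62 for Hadhb, 1.60 for Etfdh, 1.59 for Cd36, 1.51 for Acadm and 1.44 for Etfa. Others countable in full were not, among them Acadl and Acaa2, with ratios of 1.19 and 1.22. Countable here refers to overlap in position only, and the count of Hadhb is uncertain, with 57.2% of its windows shared with other genes. With the index as a covariate, an alternative added after seeing the data, the log2 fold changes of Acadvl were 0.04 (SE 0.12) by library name and 0.07 (SE 0.12) by genotype field, with the sign changed, and those of Eci2 were -0.16 (SE 0.15) and -0.08 (SE 0.15), with the sign kept. No member was called.

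**Figure D3:**
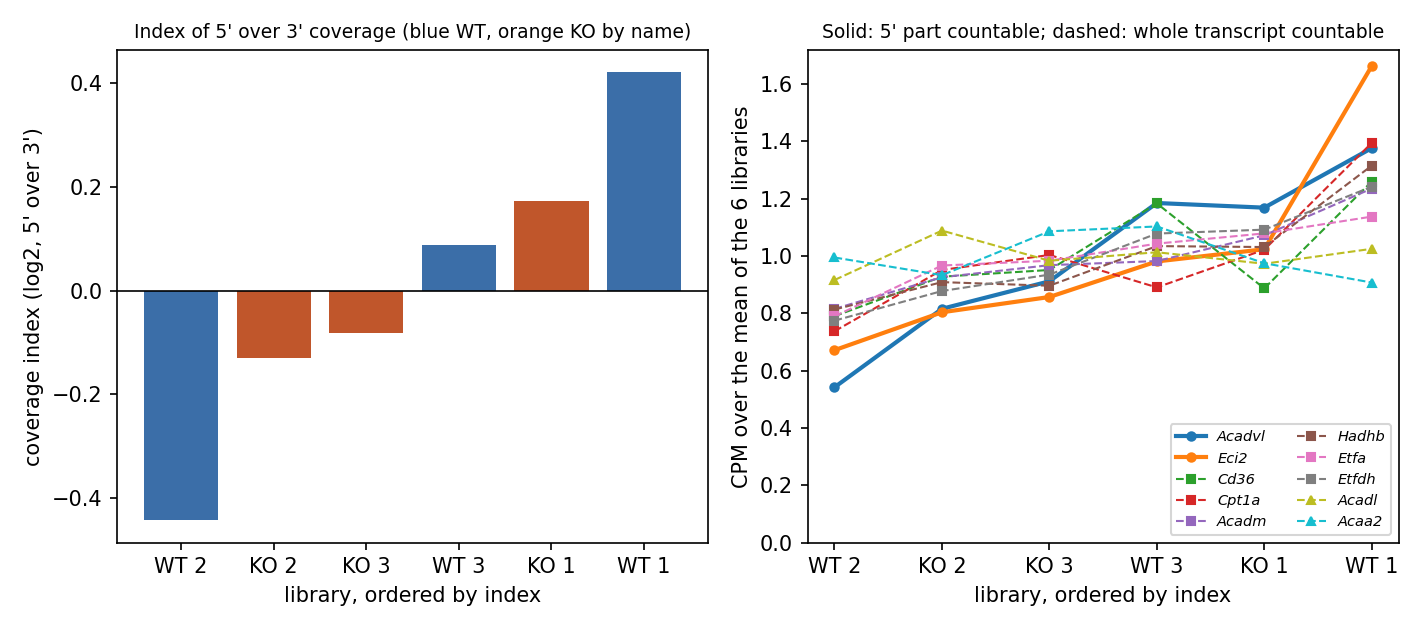
The left panel shows the index of 5′ over 3′ coverage per library (log2), with bars coloured by library name and ordered by the index, from -0.44 in WT2 to 0.42 in WT1. The right panel shows Acadvl, Eci2, Acadl and Acaa2 in the same order, with 6 fully countable members that share their extremes, as CPM over the mean of the 6 libraries. Acadvl, Eci2 and these 6 are lowest in WT2 and highest in WT1, with the widest ranges for Acadvl and Eci2, while Acadl and Acaa2 stay near 1.

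Across all members, WT1 and WT2 often took the extremes. WT1 was the highest library for 13 of 36 members (36.1%, against 27.4% of all tested genes), among them Cd36, Acsl1, Cpt1a, Acadm, Hadha, Hadhb, Etfa and Etfdh. WT2 was the lowest library for 12 of 36 members, against 20.5% of all genes, and KO2 for 13, against 17.8%. Of the 30 members with more than 95% of the transcript free of other genes, the longer 15 had medians against the mean of all libraries (log2) of 0.14, -0.11 and 0.17 in WT1 to WT3 and of -0.00, -0.24 and 0.02 in KO1 to KO3. In the shorter 15 the medians were -0.07, -0.11 and 0.07 in WT1 to WT3 and 0.00, -0.05 and 0.05 in KO1 to KO3. WT1 and KO2 differed most between the longer and the shorter members, and WT2 hardly did. Over all protein-coding genes countable in the same way, the difference between WT1 and WT2 went with transcript length with a Spearman rho of 0.38 across 9966 genes, which share the same 2 libraries; the 30 members gave 0.28. The part of transcript length or coverage in the levels of these enzymes was not tested.

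Electron transfer from beta-oxidation was represented by Etfa and Etfdh. Etfa, the alpha subunit of the electron transfer flavoprotein, was at 471, 327 and 432 CPM in WT1 to WT3 and at 447, 400.1 and 407 CPM in KO1 to KO3, and had the highest level per length of this role, 297 ± 35.8 CPM per kilobase. Etfdh, the ubiquinone oxidoreductase that accepts its electrons, ran from 267 CPM in WT2 to 427 CPM in WT1. Both were lowest in WT2 and highest in WT1. Etfb, the beta subunit, had 0, 0 and 1 counts in WT1 to WT3 and 3, 1 and 0 counts in KO1 to KO3. Only 0.328% of its gene body (GRCm38, chromosome 7, 43444083 to 43457800, plus strand) is free of other annotated genes, so these counts say nothing of its level.

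The thioesterases release free fatty acids from acyl-CoA. Acot13 had the highest level per length of its role, 387 ± 45.2 CPM per kilobase. It was at 237, 284 and 268 CPM in WT1 to WT3 and at 255, 307 and 324 CPM in KO1 to KO3. KO2 and KO3 were the highest and WT1 the lowest, and the groups overlapped through KO1 by library name. Its log2 fold change was 0.17 (SE 0.16) by library name and -0.11 (SE 0.15) by genotype field.

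The cytosolic Acot1 and the mitochondrial Acot2 are neighbouring copies on chromosome 12, 15616 bases apart. Their coding sequences were identical at 95.6% of 1236 aligned positions, with an identical run of 273 bases. A 120-base stretch that holds 14 differences, taken from GENCODE M21 transcripts and shown because it is where reads of the copies can be told apart, is printed 5′ to 3′ with the differing bases in capitals (coding positions 767 to 886 of Acot1 and 890 to 1009 of Acot2).
Acot1: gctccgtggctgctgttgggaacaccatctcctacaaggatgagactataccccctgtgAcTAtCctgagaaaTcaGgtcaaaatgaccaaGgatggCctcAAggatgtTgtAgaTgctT
Acot2: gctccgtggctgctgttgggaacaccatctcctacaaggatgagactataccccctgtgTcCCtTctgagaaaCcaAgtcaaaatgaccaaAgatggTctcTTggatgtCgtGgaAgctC

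Of the 75-base windows of the Acot1 transcript, 26.4% also occur in another gene, most of them in Acot2, so the values of both copies are uncertain. Acot1 was at 1.74, 3.45 and 3.11 CPM in WT1 to WT3 and at 3.98, 2.83 and 3.08 CPM in KO1 to KO3, on 29 to 71 reads per library. WT1 was lowest, and the libraries of the KO field (3.11 to 3.98 CPM) lay above those of the WT field (1.74 to 3.08 CPM). The log2 fold change by genotype field was 0.46 (SE 0.33, edgeR adjusted p = 0.909), and by library name it was 0.26 (SE 0.36). The Poisson intervals of neighbouring libraries overlapped, for example 2.37 to 3.94 CPM for KO3 and 2.43 to 3.92 CPM for WT3, so the gap between the field groups is within counting error. Acot2 was at 25.8, 30.8 and 33.3 CPM in WT1 to WT3 and at 27.6, 29.3 and 32.7 CPM in KO1 to KO3, and its groups overlapped under both readings.

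Plin5, a lipid droplet coat protein that tethers droplets to mitochondria, was at 23.9, 23.3 and 27.7 CPM in WT1 to WT3 and at 33.4, 23.6 and 21.0 CPM in KO1 to KO3. KO1 stood highest and KO3 lowest. Its log2 fold change was 0.06 (SE 0.20) by library name and 0.30 (SE 0.17, edgeR adjusted p = 0.904) by genotype field, where WT2 lay within the WT range.

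The regulators and fuel-switch genes showed the widest differences between mice, with a median ratio of highest to lowest library of 2.25. By library name, 0 of 6 were higher in KO and their median log2 fold change was -0.26. By genotype field, 4 of 6 were higher and the median was 0.32. KO2 was the lowest library for 5 of the 6, Ppara, Ppargc1a, Ppargc1b, Ucp3 and Ucp2. Without KO2, the log2 fold changes of Ppara, Ucp3 and Ucp2 by library name were 0.04, 0.10 and 0.03, above 0.

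Ppargc1a, which encodes PGC-1-alpha, was at 95.4, 56.0 and 84.8 CPM in WT1 to WT3 and at 53.3, 40.5 and 63.9 CPM in KO1 to KO3. WT1 and WT3 stood above all libraries named KO, and WT2 lay below KO3, so the groups overlapped. The means were 78.7 ± 20.4 CPM in WT and 52.6 ± 11.7 CPM in KO by library name (SD, n = 3), a log2 fold change of -0.58 (SE 0.22, edgeR adjusted p = 1.00). By genotype field they were 66.6 ± 27.6 and 64.7 ± 17.4 CPM, a log2 fold change of -0.04 (SE 0.30). The value by library name stayed below 0 in all 17 alternatives that refit it, from -0.94 to -0.42. Its largest size, -0.94 (SE 0.21, edgeR adjusted p = 0.421), came without WT2 and KO3, the libraries whose Prkce level goes against their name; this setting was added after seeing the data, and over these alternatives the adjusted p ran from 0.421 to 1.00.

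Ppargc1b, which encodes PGC-1-beta, did not follow Ppargc1a. It was at 6.00, 10.9 and 10.5 CPM in WT1 to WT3 and at 7.95, 5.08 and 9.79 CPM in KO1 to KO3. WT1, the highest library for Ppargc1a, was the second lowest for Ppargc1b. The log2 fold change was -0.25 (SE 0.30) by library name and 0.48 (SE 0.27, edgeR adjusted p = 0.904) by genotype field, where KO3 lay within the KO range. Ppara, the nuclear receptor itself, was at 11.5, 6.99 and 7.76 CPM in WT1 to WT3 and at 7.89, 3.77 and 10.1 CPM in KO1 to KO3. KO2 stood below the other 5, and its Poisson interval of 2.81 to 4.94 CPM did not reach theirs. The log2 fold change of Ppara was -0.26 (SE 0.35) by library name and -0.17 (SE 0.35) by genotype field.

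Pdk4, the kinase that switches off pyruvate dehydrogenase, was at 282, 530 and 896 CPM in WT1 to WT3 and at 385, 318 and 539 CPM in KO1 to KO3. WT3 stood far above the rest, and WT1 and KO2 were lowest. By library name the means were 569 ± 308 CPM in WT and 414 ± 113 CPM in KO, a log2 fold change of -0.46 (SE 0.39). By genotype field they were 380 ± 139 CPM in WT and 604 ± 263 CPM in KO, a log2 fold change of 0.67 (SE 0.34, edgeR adjusted p = 0.904). Without WT3 these values were 0.03 (SE 0.30) and 0.27 (SE 0.28), so 1 library decided the size of both. With replicates of the same number as a block, the value by genotype field was 0.64 (SE 0.15) with an adjusted p of 0.0710, the smallest of any named member in any alternative; over the 17 alternatives the adjusted p ran up to 1.00.

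The uncoupling proteins Ucp3 and Ucp2 are inner-membrane carriers whose genes lie 6904 bases apart on chromosome 7. Ucp3, the form of muscle and heart, was at 18.0, 24.9 and 27.0 CPM in WT1 to WT3 and at 24.6, 15.2 and 25.2 CPM in KO1 to KO3. Ucp2, the more widely expressed form, was at 547, 668 and 665 CPM in WT1 to WT3 and at 668, 525 and 611 CPM in KO1 to KO3. For both, KO2 was lowest and WT1 the second lowest. The libraries of the KO field were nearly equal for Ucp2, at 667 ± 1.49 CPM (SD, n = 3), and lay above those of the WT field at 561 ± 44.8 CPM, a log2 fold change of 0.25 (SE 0.14, edgeR adjusted p = 0.904). That of Ucp3 was 0.39 (SE 0.19, edgeR adjusted p = 0.904), with KO3 inside the KO range. By library name the values were -0.06 (SE 0.16) for Ucp2 and -0.10 (SE 0.23) for Ucp3.

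**Figure D4:**
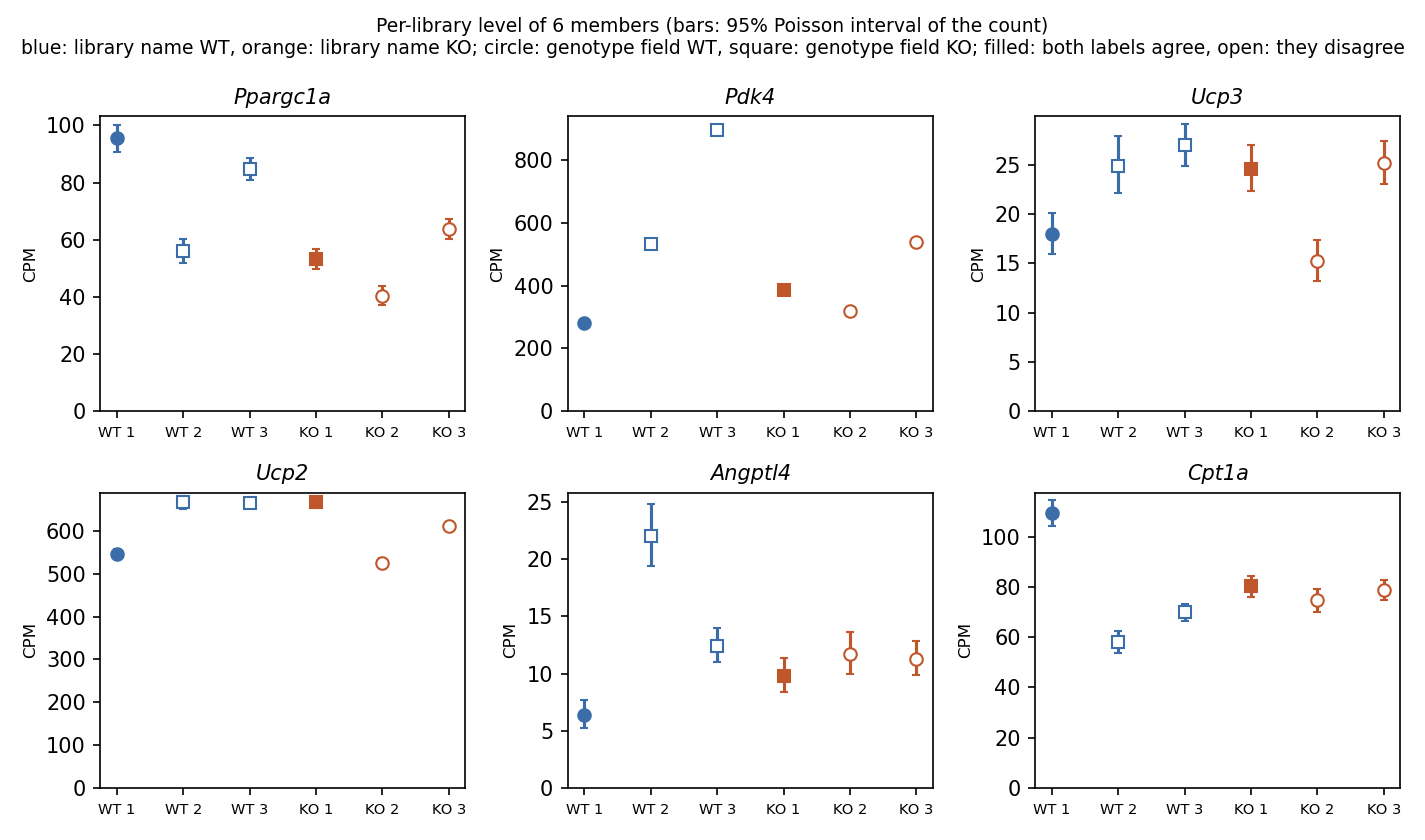
CPM per library for Ppargc1a, Pdk4, Ucp3, Ucp2, Angptl4 and Cpt1a with 95% Poisson intervals of the count; colour gives the library name, circle or square the genotype field, and filled points are libraries whose labels agree. For Ppargc1a the orange points and WT2 lie below WT1 and WT3, Ucp2 has its 3 squares near 667 CPM, and Pdk4 has 1 high point, WT3 at 896 CPM.

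The sum of the ventricular markers moved with the genotype field as well. They summed to 205, 217 and 151 CPM in WT1, KO2 and KO3, the WT field, and to 530, 661 and 387 CPM in KO1, WT2 and WT3, the KO field, without overlap. Of the 5 markers tested, 1 was called by genotype field, Myl2. The log2 fold changes by genotype field were 3.09 for Myl2 and 1.20 for Myl3, which carried most of the sum. They were 0.22 for Lbh, 0.07 for Hey2 and -0.40 for Kcne1, whose groups overlapped. Irx4, too low to be tested, was higher in all libraries of the KO field. Atrial markers overlapped, at 44980 to 49746 CPM in the WT field and 42500 to 53941 CPM in the KO field. The sum of brown adipocyte markers did not overlap by genotype field either, in the other direction. It was 73.0 to 156 CPM in the WT field and 62.2 to 64.5 CPM in the KO field, and 0 of its 4 tested markers were called. The part of ventricular tissue or of brown fat in the higher values of Ucp2, Ucp3, Pdk4 and Ppargc1b in the KO field was not tested. Both libraries with Y-linked genes near 1 CPM, WT1 and WT2, carry the name WT. By library name the Y-linked levels therefore overlapped only through WT3, at 138 CPM, and genotype and Y-linked level are hard to separate. By genotype field WT1 and WT2 fell in opposite groups, and the levels overlapped. With Y-linked expression as a covariate no member was called.

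Pdk4 and Ucp3 are textbook PPAR targets and are set side by side here by their promoters. The 250 bases before the start of each gene (RefSeq, GRCm38.p6) are shown because both were among the members with the smallest p by genotype field; the core hexamer bound by many nuclear receptors is in capitals. Ucp3 lies at chr7:100472741-100472990 on the plus strand and Pdk4 at chr6:5496279-5496528 on the minus strand.
Ucp3: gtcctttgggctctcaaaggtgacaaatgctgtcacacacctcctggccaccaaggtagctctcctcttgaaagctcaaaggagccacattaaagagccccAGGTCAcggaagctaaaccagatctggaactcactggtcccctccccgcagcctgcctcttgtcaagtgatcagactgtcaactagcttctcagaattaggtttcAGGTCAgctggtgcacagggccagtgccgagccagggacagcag
Pdk4: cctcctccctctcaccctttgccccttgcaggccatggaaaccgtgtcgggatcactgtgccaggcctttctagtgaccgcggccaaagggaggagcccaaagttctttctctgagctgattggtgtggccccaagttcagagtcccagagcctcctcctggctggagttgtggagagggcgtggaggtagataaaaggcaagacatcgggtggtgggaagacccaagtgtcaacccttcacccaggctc

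The hexamer AGGTCA, searched on both strands, began 149 and 44 bases before the start of Ucp3 and was not found before Pdk4. Of 30 members with a promoter of 300 bases in the reference, 7 held it: Cd36, Cpt1a, Acadvl, Acadm, Echs1, Plin5 and Ucp3. Of all 27025 genes with such a promoter, 18.1% held it. The PPAR element, a pair of these hexamers 1 base apart (AGGTCANAGGTCA), was in 0 of the 30 members and in 0.0481% of all genes, and the extended site TCAAGGTCA of the estrogen-related receptors was in 0 and in 0.466%. The hexamer is contained in both longer motifs. These are counts of letters in 1 window and say nothing of binding.

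**Figure D5:**
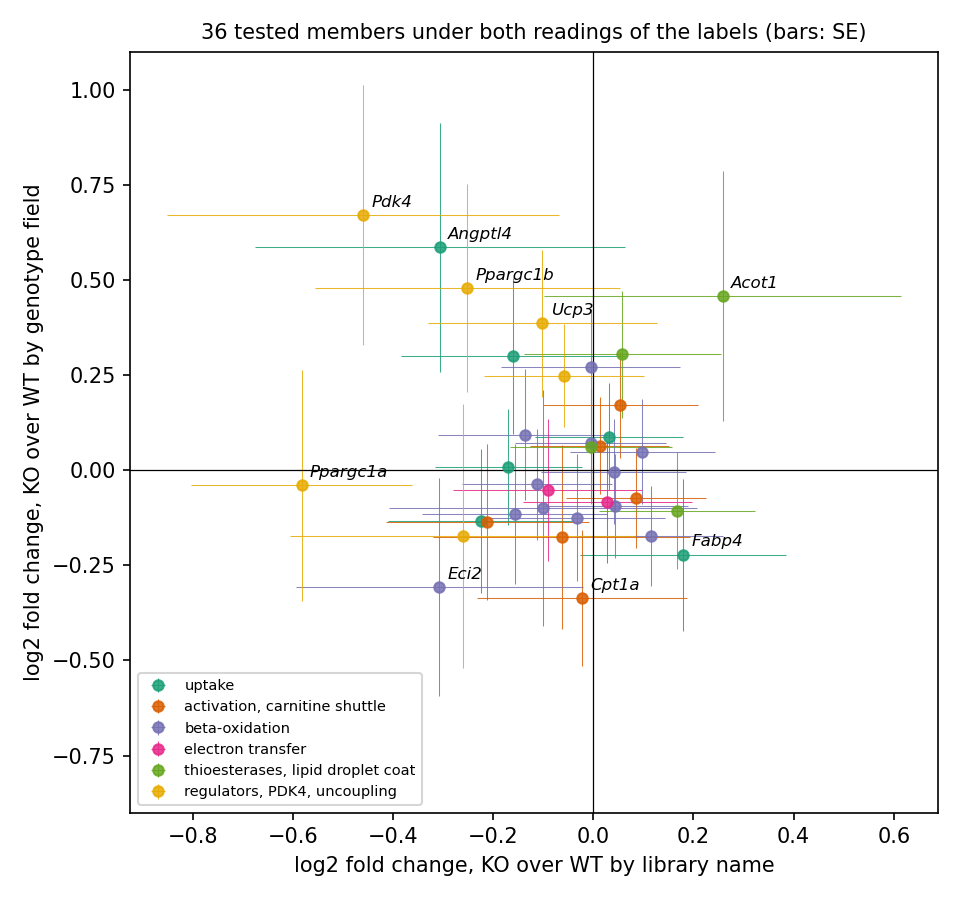
Log2 fold change of KO over WT by library name (x axis) against that by genotype field (y axis) for the 36 tested members, with SE bars and colour by role. The readings share all 6 libraries, so the points are not independent evidence; the regulators Pdk4, Ppargc1b and Ucp3 lie left of 0 and above 0, and Ppargc1a is furthest left at -0.58.

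Of 116 other genes of fatty acid metabolism, in 7 lists, 107 were tested, 7 had 0 counts in all libraries and 0 were called under either reading. By library name 48 were higher and 59 lower in KO, and by genotype field 52 were higher and 55 lower. Of the 25 other regulators, 4 were higher by library name (median log2 fold change -0.18) and 14 by genotype field (median 0.10). By library name the count was 7 without WT1 and 7 without KO3, and 3 to 6 without any other library. Esrra, the estrogen-related receptor that works with PGC-1-alpha, was at 53.9, 96.0 and 98.4 CPM in WT1 to WT3 and at 86.4, 48.7 and 71.8 CPM in KO1 to KO3. Its libraries of the KO field lay above those of the WT field, as for 7.48% of all tested genes. The log2 fold change was 0.69 (SE 0.16, edgeR adjusted p = 0.595) by genotype field, against -0.26 (SE 0.26) by library name.

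Pnpla2, adipose triglyceride lipase, which frees fatty acids from lipid droplets, gave a log2 fold change of 0.41 (SE 0.14, edgeR adjusted p = 0.786) by genotype field and -0.19 (SE 0.18) by library name. In its list of lipid droplet and triglyceride turnover, 11 of 14 tested genes were higher by genotype field and 4 of 14 by library name (7 without WT3, 4 to 6 without any other library). Neither Esrra nor Pnpla2 passed the threshold in edgeR's test. The sum of ventricular markers, mainly Myl2 and Myl3, moved with the same grouping, as given above. So did the sum of brown adipocyte markers, in the other direction.

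The lists nearest to the members in function showed no lean. Of the 19 tested genes of other mitochondrial oxidation and carnitine supply, 11 were higher by library name and 9 by genotype field. Of the 17 tested genes of peroxisomal oxidation, 9 and 7 were higher. Ehhadh, the peroxisomal bifunctional enzyme, was at 6.66, 6.48 and 7.80 CPM in WT1 to WT3 and at 10.5, 7.83 and 9.35 CPM in KO1 to KO3. Its groups did not overlap by library name, with KO higher, as for 3.33% of all tested genes. The groups of Abcd2, of the same list, did not overlap in this way either. The log2 fold change of Ehhadh was 0.40 (SE 0.23, edgeR adjusted p = 1.00) by library name and 0.06 (SE 0.25) by genotype field. Of 13 other genes of uptake and activation, 6 were higher under each reading, and of 9 genes of the PDK family and ketone use, 5 and 3 were.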

How the data were processed

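The deposited table holds raw read counts per Ensembl gene for 6 libraries, 1 per mouse, as the authors left them. The submitters' processing notes name HISAT2 2.1.0 and featureCounts 1.5.0-p3, on GRCm38, beside the quality tools MultiQC 1.7 and FastQC 0.11.5. For the annotation release, strand setting and feature type nothing is given in the sources used here. In this table, genes whose body is covered by other annotated genes have counts at or near 0, and the unstranded kit (TruSeq v2, per the labels' protocols) cannot separate antisense partners. Coordinates and the overlap of genes come from GENCODE M21.

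Tests used edgeR 4.0.16 in R 4.3.3 (quasi-likelihood F test, robust, TMM, filterByExpr), two-sided, adjusted by Benjamini-Hochberg over 14708 genes at 0.05, on all 6 libraries with no covariate. SE was derived from each test by dividing the size of the log2 fold change by the root of its F statistic. CPM is after TMM scaling. Alternatives were RLE scaling, DESeq2 1.42.0, limma-voom (limma 3.58.1), no low-count filter, a threshold of 0.1, a replicate block, covariates for library series or Y-linked expression, leaving out genes that hold over 1% of counts, the numbered library series alone and each library left out. Fits were tested on simulated data. P-values measure the spread between these mice only.

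The members and lists were chosen with earlier results of these data known. Per-library values are given for the 6 members with the smallest p in either reading, members with a highest to lowest ratio of at least 2, the highest per length in each role and pairs of paralogs; of each other list, the 2 with the smallest p per reading could be named, and some of these are. Decr1 and the genes in the closing observations were chosen after their values were seen. Poisson intervals are at 95% and, without molecular identifiers, describe counting error alone. The coverage index used genes with 5 to 95% of the transcript free and its middle below 0.35 or above 0.65 of the length. Per-length levels need 200 countable bases.

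The titles give replicate numbers in both groups. Deviations of libraries with the same number correlated at 0.165, 0.179 and 0.127 by library name and 0.332, 0.281 and 0.113 by genotype field. By a limit of 0.1 the numbers may thus pair the mice. This comes from the data, as no label says what a number stands for. Both libraries of number 1 are those of the Old series, and numbers 2 and 3 are all in the numbered series. A replicate block therefore takes in the library series as well.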

Additional observations from a re-analysis of the deposited data

How the results depend on the processing

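No member was called under either reading in any alternative, and at an unadjusted p under 0.05 the count ran from 0 to 4 members by library name and 0 to 5 by genotype field. In the main fits, 1.49% of all tested genes by library name and 5.69% by genotype field were under this limit. The shares of all genes in the alternatives are not given here, so these counts are not a result about the members. With the replicate block, 0 members were called under both readings, and 14 members were higher in KO by library name and 18 by genotype field, so the block changed no call of a member; over all genes it moved the calls by genotype field from 2 to 51. The number of members higher in KO by library name was 8 with Y-linked expression as covariate, against 13, and leaving out 1 library gave 11 to 20, where the highest value came when WT replicate 1 was absent and again when KO replicate 2 was; the cause was not tested. By genotype field leaving out 1 library gave 15 to 25. Without the 2 libraries at odds with Prkce, 11 were higher by library name and 13 by genotype field, and with the coverage index as covariate 16 and 24. The share of all genes higher in KO under each of these settings is not given here, so the shifts may not be particular to the members. Of the 22 members that the naming rule gave, 5 kept the sign of their log2 fold change in all 17 alternatives that refit it by library name (Acot13, Cd36, Lpl, Ppargc1a and Ppargc1b) and 13 by genotype field.

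With 3 mice per group, contradictory labels and no call, a p above the threshold does not show that the genotypes are alike. Depth limits Acot1, Acsl3, Ppara and Ppargc1b most. Cpt1b and Etfb could not be measured, and Hadhb, Fabp3, Acot1 and Acot2 share long stretches of sequence with copies.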

Other observations

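Of a list of 10 genes of fatty acid synthesis, which runs opposite to oxidation, Scd1, Fasn, Elovl6 and Acly were highest in KO2. The others of the list are not shown by library. KO2 is also the library in which 5 of the 6 members of the regulator role were lowest. Scd1, stearoyl-CoA desaturase, was at 101, 101 and 65.7 CPM in WT1 to WT3 and at 64.9, 567 and 84.2 CPM in KO1 to KO3. Fasn, fatty acid synthase, was at 113 CPM in KO2 and between 24.6 and 43.3 CPM in the other 5 libraries, Elovl6, a fatty acid elongase, at 14.7 CPM against 2.16 to 5.30 CPM, and Acly, ATP citrate lyase, at 99.9 CPM against 51.0 to 61.0 CPM. Of the 10 genes of this list, 9 were higher in KO by library name (median log2 fold change 0.18) and 2 by genotype field (median -0.31), and none was called by edgeR. Without KO2, which is a KO by name and a WT by genotype field, 2 were higher by library name (median -0.11) and 6 by genotype field (median 0.00); leaving out any other library gave 8 or 9 and 2.

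The summed brown adipocyte markers were highest in the same library. Ucp1, the uncoupling protein of brown fat, was at 57.4 CPM in KO2 and between 0 and 3.54 CPM in the other 5, and Cidea at 41.1 CPM against 10.1 to 22.1 CPM. Not every marker followed: Slc36a2 was highest in WT1, at 53.3 CPM against 35.5 CPM in KO2, and Zic1 in KO1, at 0.454 CPM against 0.145 CPM. Adipoq, the adiponectin gene of all fat cells, was at 20.2 CPM in KO2 but at 20.5 CPM in WT2, where Ucp1 was at 2.95 CPM. Their part in the levels of Scd1, Fasn and Fabp4 in KO2 was not tested.

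Gpam, which starts triglyceride synthesis, had the widest range of the lipid droplet genes that were named, with 35.5 CPM in WT1 and 5.22 to 14.0 CPM in the other 5 libraries. Its log2 fold changes were -0.78 (SE 0.71) by library name and -0.81 (SE 0.69) by genotype field.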
